A study of Mus musculus with 12 samples.

Results

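Gene expression in dorsal skin wounds worn under a strain patch for 10 days was compared with that in wounds under a film dressing alone. The mice were male, 12.5 weeks old, of the C57BLKS/J background and homozygous for the db allele of Lepr, the leptin receptor gene (db/db), a model of obesity and type 2 diabetes with slow wound closure. Each wound was a full-thickness punch of 6 mm. In the group named Strain (4 libraries) a patch made to impose about 30% strain was placed on the wound straight after injury. In the group named TD (5 libraries) the wound received Tegaderm, a transparent adhesive film. In a further group named No Strain (3 libraries) it received a patch that imposed no strain. All 3 groups share the mutation, the wound and the day of collection, so there is no non-diabetic and no unwounded control. Strain and TD together make up 9 of the 12 libraries of the series, and all genes of their count files were eligible: 18618 of 54232 listed genes passed the filter on low counts and were tested. Strain against TD holds the patch and its strain together, so their shares in a change against TD cannot be told apart. For that reason No Strain is given in the figures by library and where the patches are compared. Whether 2 wounds shared a mouse is not stated in the labels, so p-values measure the spread between libraries only.

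Skin repair runs through overlapping phases. Neutrophils and inflammatory monocytes enter first and release cytokines, proteases and antimicrobial proteins. Macrophages then shift towards a state that clears debris and supports repair, while keratinocytes migrate over the wound, vessels sprout and fibroblasts deposit and remodel collagen. In db/db wounds the inflammatory phase is known to last longer than in non-diabetic mice. A full-thickness dorsal wound also borders subcutaneous fat and a thin sheet of skeletal muscle, so a sample of whole tissue can contain their RNA as well.

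Libraries held 20354677 to 25059371 gene counts. Levels are given as CPM, read counts relative to library size after TMM scaling, and changes as log2 fold changes. A gene was called when its adjusted p was under 0.05 in edgeR's quasi-likelihood test. After a log2 fold change, ± gives a standard error derived from that test. It is the size of the change divided by the square root of the F statistic. Markers of skin were present in every library: the basal keratin gene Krt14 ranged from 2147 to 3318 CPM in TD and from 2543 to 6724 CPM under Strain, and Col1a1 from 11468 to 17926 and 9653 to 18701 CPM in the same order. Lepr itself was at 3.39 ± 0.746 in TD and 4.20 ± 1.08 CPM under Strain (mean ± SD of 5 and 4 libraries, adjusted p = 0.354), but a gene count does not show the mutation. Genes of a mature skeletal muscle list took 1.57% ± 0.510 of counts in TD (SD, n = 5, range 0.888 to 2.29%) and 0.579% ± 0.184 under Strain (SD, n = 4, range 0.419 to 0.844%), a difference with an exact two-sided permutation p of 0.0159; its part in the results below is given as a separate fit, after the muscle genes. The numbers in the sample titles run from 1 to 6 in TD and from 7 to 15 under Strain, and any effect of that order cannot be told apart from the treatment.

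The difference between Strain and TD was broad and nearly balanced. Of the genes tested, 2349 were called, which is 12.6%: 1155 were higher (6.2%) and 1194 lower (6.41%) under Strain, and the median log2 fold change of all genes was 0.02. Changes of at least 1 log2 unit numbered 365 upwards and 495 downwards. The 4 Strain libraries did not overlap the 5 TD libraries for 14.6% of all genes tested and for 1857 of the 2349 called genes (79.1%), of which 899 were higher and 958 lower. Protein-coding genes made up 2147 of the called genes, out of 15422 tested. Strain replicate 2 weighed most on the count: without it 882 of 18584 genes were called (4.75%), and the count was 1426 without TD replicate 2, 1301 without TD replicate 3 and 1274 without TD replicate 4. Sample titles also carry a letter, L or R, whose meaning the labels do not give: 1 L and 4 R in TD, 3 L and 1 R under Strain. With the letter as a further term, the letter term below, 798 genes were called (4.29%), and within 1 letter too few libraries remain for a test. Where this term or leaving out a Strain or TD library ended a call or moved a list's count by more than 1.5 times, the value stands beside it. Leaving out No Strain replicates 1, 2 and 3 ended 7, 3 and 2 of the 127 calls of named genes, and these are not marked.

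**Figure D1:**
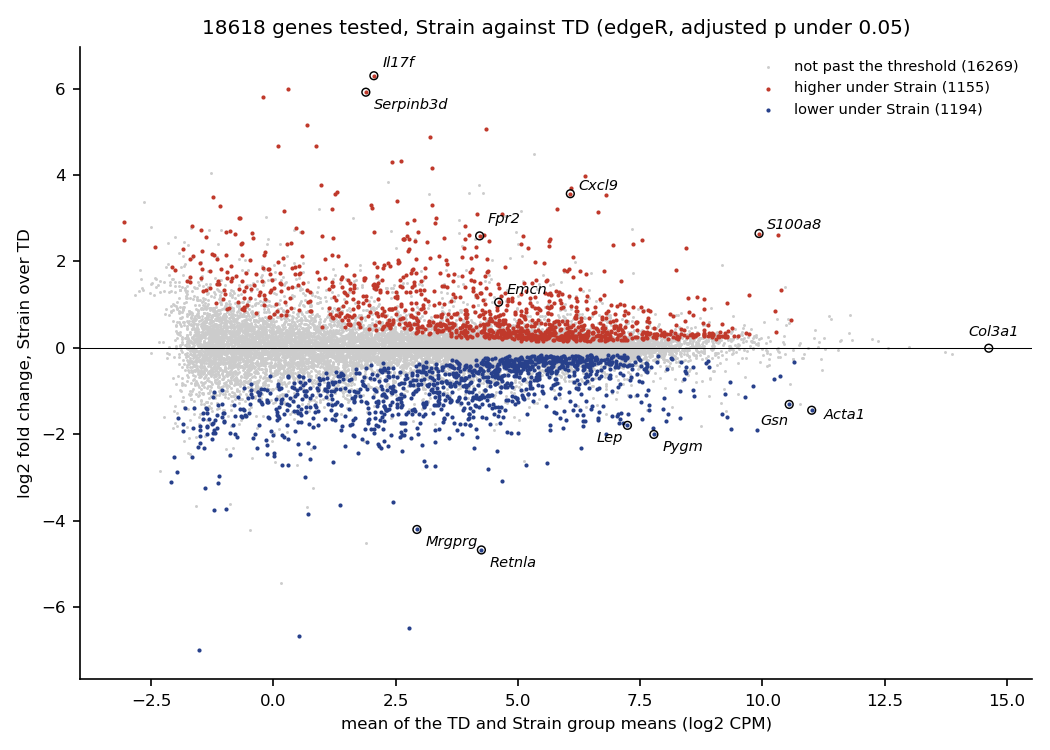
Each point is 1 of 18618 genes tested, with the mean of the TD and Strain group means on the horizontal axis (log2 CPM) and the log2 fold change of Strain over TD on the vertical axis. Red points (1155) are higher and blue points (1194) lower under Strain at an adjusted p under 0.05 in edgeR, grey points were not called, and circled genes are named in the text; the largest labelled falls are Retnla and Mrgprg, while the most abundant labelled gene, Col3a1, lies at 0.

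To describe the processes behind this number, 70 lists of genes were used, 26 for cell types of wounded skin and 44 for processes. They hold 1520 tested genes, of which 398 were called. Lists are described by the number of members called in each direction and by the median of their tested members, against 6.2% higher, 6.41% lower and a median of 0.02 over all genes. In 37 lists at least 5 members were called. With the letter term the called count fell by more than 1.5 times in 56 of the 70 lists, and the median took the other sign in 4. In whole tissue, more cells of a type and more RNA per cell cannot be told apart.

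**Figure D2:**
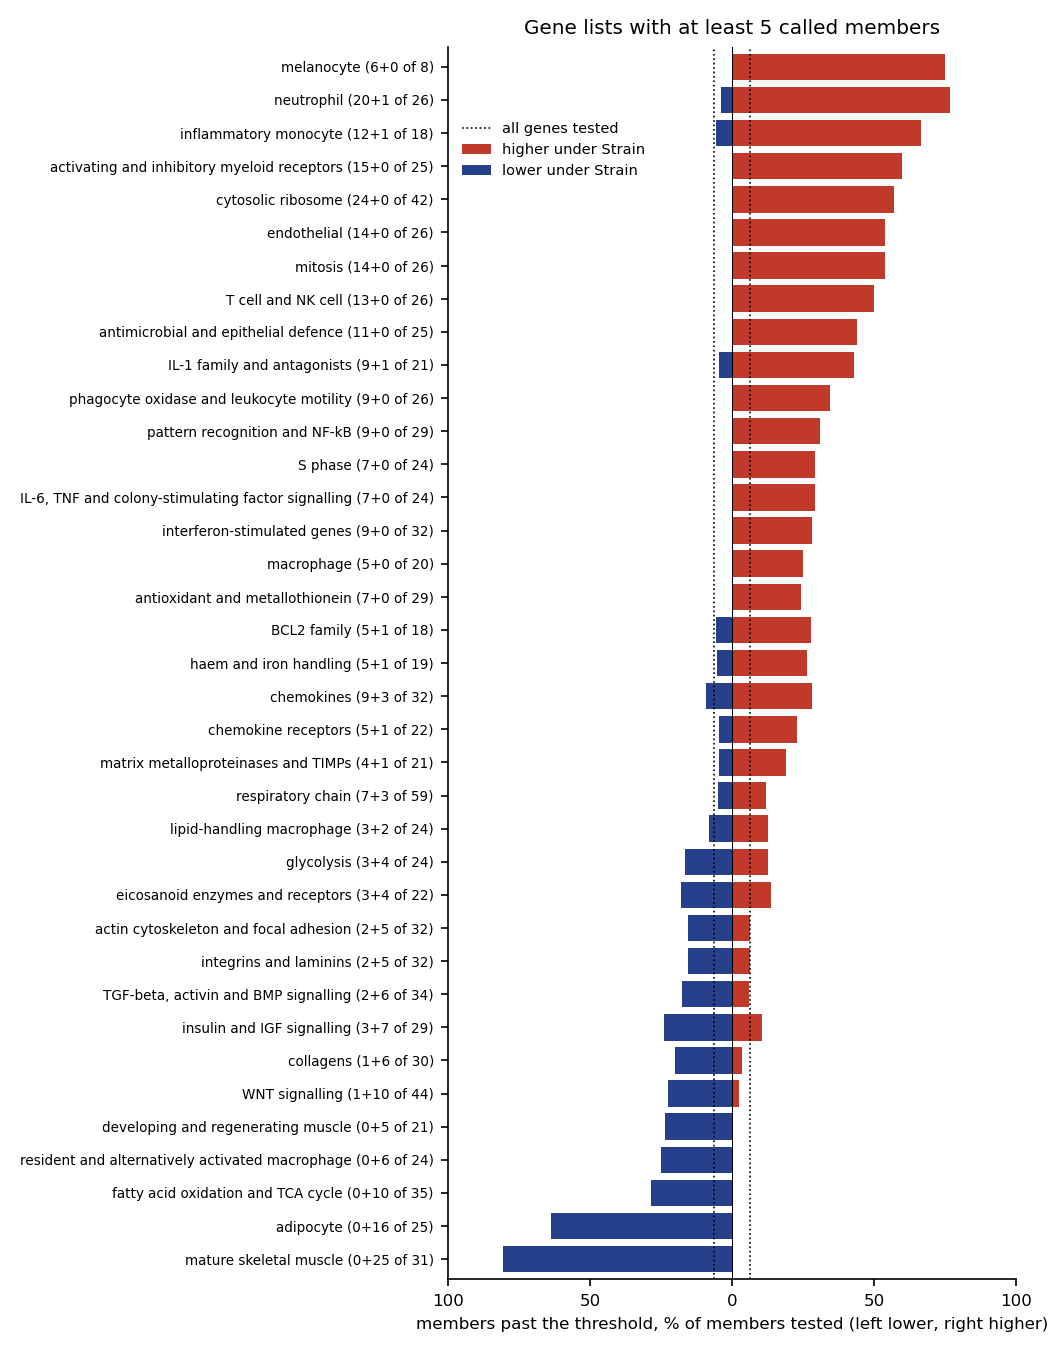
Bars show, for each of the 37 gene lists with at least 5 called members, the percentage of tested members that were higher (red, right) and lower (blue, left) under Strain than in TD, and the numbers in brackets give members higher, lower and tested. Dotted lines mark the percentages over all genes tested (6.2% higher, 6.41% lower); myeloid, lymphoid, endothelial, melanocyte, mitosis and ribosome lists extend furthest to the right and the muscle, adipocyte and fatty acid oxidation lists furthest to the left.

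Genes of alternatively activated and resident macrophages included the gene with the smallest p of the comparison. Retnla (ENSMUSG00000061100, chr16:48842551-48844461 in GRCm38) encodes a secreted resistin-like protein induced by interleukin 4 in macrophages. Its CPM was 32.5, 41.3, 34.1, 28.8 and 46.9 in TD replicates 1 to 5 and 1.84, 1.39, 1.36 and 1.15 in Strain replicates 1 to 4. Every Strain library lay far under every TD library, the difference was 25.6-fold (log2 fold change -4.68 ± 0.24, adjusted p = 7.08e-06), and the call held without any single Strain or TD library. Ccl24 encodes an eosinophil-attracting chemokine of the same macrophage state, with 4.81, 12.6, 6.25, 4.72 and 7.88 CPM in TD and 2.28, 1.12, 1.44 and 1.34 CPM under Strain (log2 fold change -2.23 ± 0.35, adjusted p = 0.00629). For Mgl2, a galactose-binding lectin of macrophages and dermal dendritic cells, the TD libraries had 8.05, 5.79, 12.7, 9.72 and 10.5 CPM and the Strain libraries 2.98, 2.20, 4.51 and 1.48 CPM (log2 fold change -1.73 ± 0.34, adjusted p = 0.0124). Neither gene overlapped between the groups.

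The promoter of Retnla is shown because binding sites for STAT6, the factor that interleukin 4 signalling activates, have the form TTCNNNNGAA. The window runs from 250 bases before to 50 after the start in RefSeq (chr16:48842359-48842658, plus strand, GRCm38.p6), and capitals mark the single match on either strand.
Retnla: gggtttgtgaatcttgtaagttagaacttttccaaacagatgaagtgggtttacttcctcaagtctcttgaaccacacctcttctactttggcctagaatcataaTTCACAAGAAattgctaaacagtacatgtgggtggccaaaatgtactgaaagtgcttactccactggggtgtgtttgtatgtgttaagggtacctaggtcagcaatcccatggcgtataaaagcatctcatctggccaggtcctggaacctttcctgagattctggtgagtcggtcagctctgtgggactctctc
The same letters occur in 6.95% of 32851 RefSeq windows of this length and in 5 of 21 genes of the resident and alternatively activated macrophage list that have a window. They also occur in 4 of 23 genes of the interferon-stimulated list that have a window. A gene was counted when any of its windows matched, so shares of genes and of windows are not the same measure. A match is a description of letters and was not tested for binding.

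In the whole list of resident and alternatively activated macrophages, 6 of 24 tested members fell and 0 rose, with a median of -0.60. Besides the genes above, Lyve1, a hyaluronan receptor of resident macrophages and lymphatic vessels, fell (log2 fold change -1.46 ± 0.28, adjusted p = 0.0107). The mannose receptor gene Mrc1, a defining marker, was not called, with 298 ± 101 CPM in TD and 243 ± 46.1 CPM under Strain (mean ± SD of 5 and 4 libraries, adjusted p = 0.481). Ear2, a ribonuclease gene of eosinophils and some macrophages that belongs to a family of close copies, also fell (log2 fold change -1.74 ± 0.29, adjusted p = 0.00727). The complement gene C7, a part of the membrane attack complex, fell from 18.9 ± 2.27 to 6.21 ± 0.857 CPM (mean ± SD of 5 and 4 libraries, adjusted p = 0.00386), 1 of 2 called among 23 complement genes tested, both lower. The share called in the complement list was 8.70%, against 12.6% of all genes, and its median was 0.15.

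Neutrophil genes moved the other way. Of 26 tested members of the list, 20 rose and 1 fell, with a median of 1.77; the count was 13 without Strain replicate 2 and 9 with the letter term. Mmp8 (ENSMUSG00000005800, chr9:7558456-7568485) encodes neutrophil collagenase. Its CPM was 3.12, 3.57, 7.01, 3.19 and 2.72 in TD and 17.4, 19.4, 13.4 and 18.4 under Strain. The groups did not overlap, and the level was 4.35-fold higher (log2 fold change 2.12 ± 0.37, adjusted p = 0.00857). Fpr2, a receptor for formylated peptides that guides neutrophils, had 4.19, 6.28, 5.93, 6.13 and 3.94 CPM in TD and 11.2, 60.1, 26.4 and 30.1 CPM under Strain (log2 fold change 2.59 ± 0.40, adjusted p = 0.00582). Here Strain replicate 1 was the lowest of its group, yet above all TD libraries.

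Other receptors and granule genes of neutrophils gave the same direction. Csf3r, the receptor for the growth factor of neutrophils, rose from 35.7 ± 6.95 to 84.5 ± 24.2 CPM (mean ± SD of 5 and 4 libraries, log2 fold change 1.24 ± 0.30, adjusted p = 0.0243). The Csf3r call was lost without Strain replicate 2 or TD replicates 3 or 4 (adjusted p = 0.0568 to 0.085) and with the letter term (adjusted p = 0.12). Cxcr2, the receptor for neutrophil-attracting chemokines, rose (log2 fold change 1.28 ± 0.28, adjusted p = 0.0175). The Cxcr2 call was lost without Strain replicate 2 (adjusted p = 0.0572) and with the letter term (adjusted p = 0.066). Ngp, a granule protein made in immature neutrophils, rested on few reads: 0 to 2 counts in TD and 3 to 130 under Strain, with Strain replicates 1 and 3 highest (adjusted p = 0.011). Ly6g, which defines mouse neutrophils, was near the detection limit, at 0 to 5 counts in TD and 5 to 9 under Strain, and was not called (adjusted p = 0.146). The 1 member that fell, Padi4, encodes an enzyme that citrullinates histones and is also made in other cells; its CPM went from 17.3 ± 2.77 to 7.49 ± 2.58 (mean ± SD of 5 and 4 libraries, adjusted p = 0.00899). Nor did every abundant neutrophil gene separate the groups: S100a8, a subunit of calprotectin, had 672, 199, 138, 157 and 182 CPM in TD and 3631, 2362, 283 and 469 CPM under Strain. Strain replicates 1 and 2 were highest and TD replicate 1 exceeded Strain replicates 3 and 4, and the groups overlapped. The S100a8 call (adjusted p = 0.0437) was lost without Strain replicates 1 or 2 or TD replicates 2, 3, 4 or 5 (adjusted p = 0.0832 to 0.12) and with the letter term (adjusted p = 0.181).

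Inflammatory monocyte genes rose with them, 12 of 18 tested members higher and 1 lower, with a median of 1.24; the count was 6 without Strain replicate 2 and 4 with the letter term. Fcgr4, an activating receptor for immunoglobulin G, had 5.47, 12.2, 13.0, 9.76 and 12.3 CPM in TD and 14.8, 100.3, 59.9 and 49.2 CPM under Strain (log2 fold change 2.41 ± 0.43, adjusted p = 0.0089). Strain replicate 1 was the lowest Strain library and only just above the highest TD library. Ly6c2, the surface marker of inflammatory monocytes and one of a family of close copies, showed the same order, with 4.27, 7.10, 7.80, 4.48 and 4.20 CPM in TD and 6.85, 70.7, 37.2 and 22.3 CPM under Strain. There Strain replicate 1 lay within the TD range (adjusted p = 0.0132). The high-affinity receptor gene Fcgr1 (1.58 ± 0.32) and Ccr2, the chemokine receptor by which these cells leave the bone marrow (1.16 ± 0.23), also rose, with adjusted p of 0.014 and 0.0128 in that order and no overlap between groups. Among general macrophage genes 5 of 20 rose and 0 fell (median 0.50, 2 without Strain replicate 2), led by Aif1 at 1.75 ± 0.20 (adjusted p = 0.00251). Acod1, the enzyme that makes itaconate in activated macrophages, had 9.04, 10.7, 20.2, 6.17 and 8.41 CPM in TD and 43.4, 212, 56.0 and 92.3 CPM under Strain. The lowest Strain library exceeded the highest TD library by a wide margin (log2 fold change 3.21 ± 0.54, adjusted p = 0.0077).

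**Figure D3:**
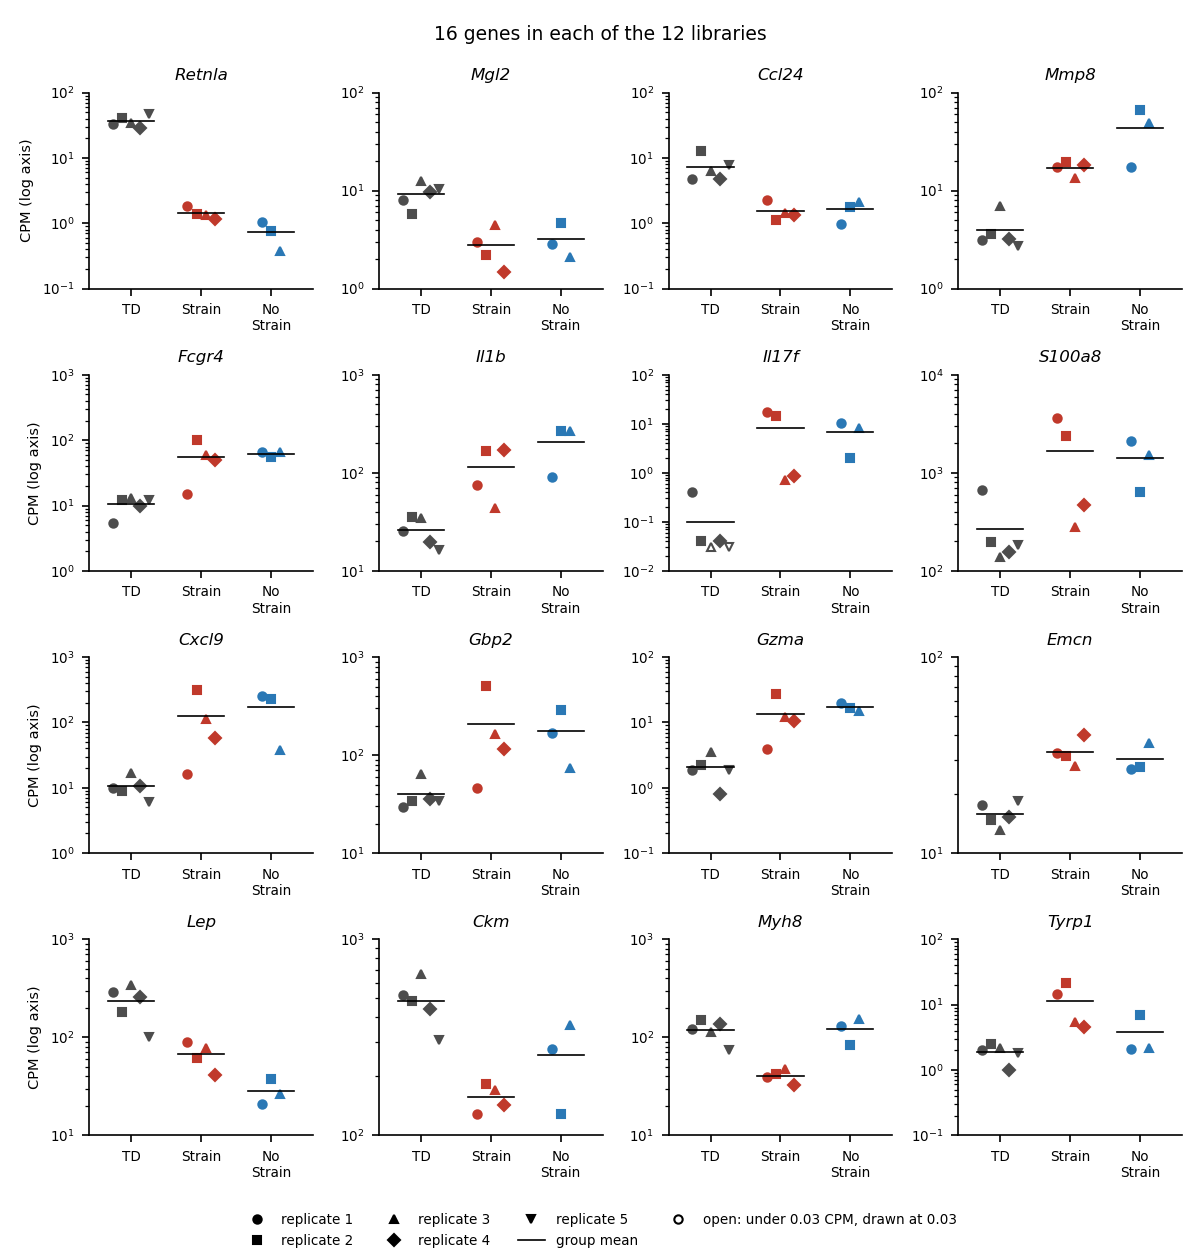
Each panel gives 1 gene in all 12 libraries as CPM on a log axis, in the groups TD (5 libraries), Strain (4) and No Strain (3); symbols mark the replicate, bars the group mean, and open symbols values under 0.03 CPM drawn at that level. Retnla, Mgl2, Ccl24, Lep, Ckm and Myh8 were lower in all Strain than in all TD libraries, Mmp8, Fcgr4, Il1b, Il17f, Gzma, Emcn and Tyrp1 were higher in all, and S100a8, Cxcl9 and Gbp2 overlapped between these groups.

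Cytokine genes followed. In the list of the interleukin 1 family and its antagonists 9 of 21 members rose and 1 fell, and the number called was 4 with the letter term. Il1b, the main secreted cytokine of activated myeloid cells, had 25.4, 35.8, 34.6, 19.9 and 16.2 CPM in TD and 75.1, 166, 43.6 and 170.2 CPM under Strain (log2 fold change 2.11 ± 0.45, adjusted p = 0.0153). All Strain libraries were above all TD libraries, with replicates 2 and 4 highest. The Il1b call was lost with the letter term (adjusted p = 0.117). Il18rap, a subunit of the interleukin 18 receptor (1.74 ± 0.21, adjusted p = 0.00251), and Il18bp, a soluble inhibitor of interleukin 18 (2.13 ± 0.35, adjusted p = 0.00727), both rose without overlap. Il1f6, which encodes the keratinocyte cytokine interleukin 36 alpha, rose (2.33 ± 0.56, adjusted p = 0.0243). The Il1f6 call was lost without Strain replicates 1 or 2 or TD replicates 3 or 4 (adjusted p = 0.0589 to 0.0652) and with the letter term (adjusted p = 0.0839). Il1f10, an interleukin 1 family member of the epidermis, fell from 1.64 ± 0.436 to 0.531 ± 0.118 CPM (mean ± SD of 5 and 4 libraries, adjusted p = 0.0139).

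Of 24 genes of interleukin 6, TNF and colony-stimulating factor signalling, 7 rose and 0 fell, and this count was 1 without Strain replicate 2, 3 without TD replicate 4, 4 without TD replicate 3 and 1 with the letter term. Csf3, the growth factor that drives neutrophil production, was at 0.699, 0.123, 0.239, 0.202 and 0.0438 CPM in TD and at 4.67, 4.32, 1.13 and 4.64 CPM under Strain (log2 fold change 3.78 ± 0.72, adjusted p = 0.0109). The groups did not overlap, and TD rested on 1 to 17 counts per library. Osm, oncostatin M (1.40 ± 0.30, adjusted p = 0.0155), and Tnf (1.29 ± 0.29, adjusted p = 0.0181) rose less. The Osm call was lost without Strain replicate 2 (adjusted p = 0.0517) and with the letter term (adjusted p = 0.104) and the Tnf call without Strain replicate 2 (adjusted p = 0.0609) and with the letter term (adjusted p = 0.0662). Among 29 genes of pattern recognition and NF-kB signalling 9 rose and 0 fell, and this count was 1 without Strain replicate 2, 3 without TD replicates 3 or 4, 4 without TD replicate 2, 5 without TD replicates 1 or 5 and 3 with the letter term. Nfkbia, the inhibitor that NF-kB itself induces, rose from 96.8 ± 13.7 to 192 ± 65.8 CPM (mean ± SD of 5 and 4 libraries, adjusted p = 0.0126). The Nfkbia call was lost with the letter term (adjusted p = 0.0556). The bacterial lipoprotein receptor gene Tlr2 rose (1.27 ± 0.30, adjusted p = 0.0233). The Tlr2 call was lost without Strain replicate 2 or TD replicate 3 (adjusted p = 0.0546 to 0.0547) and with the letter term (adjusted p = 0.125).

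Chemokine genes rose in 9 of 32 tested cases and fell in 3, and the number called was 6 without Strain replicate 2 and 5 with the letter term. Cxcl2, a ligand of Cxcr2, had 15.6, 18.2, 21.9, 9.44 and 11.5 CPM in TD and 64.7, 105, 28.0 and 140.3 CPM under Strain (log2 fold change 2.46 ± 0.44, adjusted p = 0.00893). Ccl4, which attracts monocytes and lymphocytes, had 1.93, 1.93, 2.55, 1.17 and 1.84 CPM and 4.91, 13.6, 6.38 and 18.5 CPM in the same order (log2 fold change 2.52 ± 0.43, adjusted p = 0.0077). For both genes the groups did not overlap, and Strain replicates 2 and 4 were highest. The Cxcl2 call was lost with the letter term (adjusted p = 0.0577). The falls were Ccl24, Cxcl14 and Ccl27a, the latter pair being chemokines of resting epidermis. Among 22 chemokine receptors 5 rose and 1 fell. Cxcr6, a receptor of tissue lymphocytes, had 3.29, 2.13, 3.23, 2.46 and 2.54 CPM in TD and 14.6, 24.0, 12.1 and 8.71 CPM under Strain (log2 fold change 2.44 ± 0.28, adjusted p = 0.00245). Cxcr4 rose from 25.1 ± 4.49 to 56.7 ± 8.35 CPM (mean ± SD of 5 and 4 libraries, adjusted p = 0.0051).

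Surface receptors of myeloid cells were a further group, with 15 of 25 tested members higher, 0 lower and a median of 0.94; the count was 6 without Strain replicate 2, 9 without TD replicates 3 or 4 and 6 with the letter term. Clec4e, the receptor Mincle for damaged cells and fungi, had 8.67, 18.8, 21.1, 12.7 and 13.4 CPM in TD and 48.4, 166, 63.7 and 64.5 CPM under Strain (log2 fold change 2.52 ± 0.41, adjusted p = 0.00715). Cd300lf, an inhibitory receptor that binds ceramide and phosphatidylserine, had 13.6, 15.4, 10.5, 11.7 and 10.8 CPM in TD and 33.9, 82.8, 60.8 and 67.1 CPM under Strain (log2 fold change 2.30 ± 0.24, adjusted p = 0.00186). In both genes the highest TD library was below the lowest Strain library. Cd300e rose as well (adjusted p = 0.0203), but at 3 to 9 counts in TD, with Strain replicate 1 at the TD level and the call lost without Strain replicate 2 (adjusted p = 0.0619).

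In the list of eicosanoid enzymes and receptors, which make and sense prostaglandins and leukotrienes, 3 of 22 members rose and 4 fell, 31.8% against 12.6% of all genes, with a median of 0.03. The count was 3 without Strain replicate 2 or TD replicate 3, 4 without Strain replicate 4 or TD replicates 1 or 4 and 1 with the letter term. Ptgs2, prostaglandin synthase 2, rose (1.54 ± 0.40, adjusted p = 0.0311). The Ptgs2 call was lost without Strain replicates 2 or 4 or TD replicates 2, 3, 4 or 5 (adjusted p = 0.0562 to 0.0903) and with the letter term (adjusted p = 0.104). Among the falls were a pair of enzymes that make leukotrienes, Alox5 (log2 fold change -0.98 ± 0.22, adjusted p = 0.0192) and Ltc4s (log2 fold change -1.37 ± 0.28, adjusted p = 0.0138), both lower in every Strain library than in every TD library. The Alox5 call was lost with the letter term (adjusted p = 0.0615) and the Ltc4s call with the letter term (adjusted p = 0.0565).

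Antimicrobial and epithelial defence genes had the highest median of all lists described here, 1.92, with 11 of 25 members higher and 0 lower, but they did not rise alike in the 4 libraries. Il17f, a cytokine of lymphocytes that induces antimicrobial proteins in keratinocytes, had 0.411, 0.041, 0, 0.0403 and 0 CPM in TD and 17.2, 14.1, 0.7 and 0.862 CPM under Strain. Strain replicates 1 and 2 stood more than 10 CPM above replicates 3 and 4, which were themselves above TD, and TD rested on 0 to 10 counts (adjusted p = 0.0133). The Il17f call was lost with the letter term (adjusted p = 0.0625). Il17a repeated this order, with 4.17, 6.88, 0.428 and 1.01 CPM under Strain and 1 to 3 counts per TD library (adjusted p = 0.00869). Defb3, a keratinocyte beta-defensin induced by interleukin 17, had 2.38, 0.246, 0.159, 0 and 0.219 CPM in TD and 58.6, 10.7, 0.311 and 1.44 CPM under Strain. Strain replicate 1 was highest, Strain replicates 3 and 4 lay below TD replicate 1. The Defb3 call (adjusted p = 0.0471) was lost without Strain replicates 1 or 2 or TD replicates 2, 3, 4 or 5 (adjusted p = 0.0883 to 0.186) and with the letter term (adjusted p = 0.196). Lcn2, which withholds iron from bacteria, behaved likewise, with 50.3, 14.0, 10.6, 16.2 and 9.94 CPM and 288, 323, 61.1 and 39.5 CPM (adjusted p = 0.02). The Lcn2 call was lost without Strain replicate 2 or TD replicate 4 (adjusted p = 0.051 to 0.0633) and with the letter term (adjusted p = 0.0642). The number of called members was 4 without Strain replicates 1 or 2 or TD replicate 4, 6 without TD replicates 2 or 3, 7 without TD replicate 5 and 4 with the letter term.

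Interferon-stimulated genes split the Strain libraries in another way. Of 32 tested members 9 rose and 0 fell, with a median of 1.26, and 0 members were free of overlap between the groups. The number called was 0 without Strain replicate 2, 1 without TD replicate 4, 2 without TD replicates 1, 2 or 5, 4 without TD replicate 3, 5 without Strain replicate 3, 22 without Strain replicate 1 and 1 with the letter term. Cxcl9, a chemokine that interferon gamma induces and that attracts T cells, had 10.0, 8.78, 16.9, 10.5 and 6.09 CPM in TD and 16.2, 309, 113 and 58.7 CPM under Strain (log2 fold change 3.57 ± 0.77, adjusted p = 0.0161). Cxcl10, a chemokine of the same kind, had 5.18, 4.84, 6.65, 6.53 and 3.68 CPM and 5.61, 119, 37.0 and 22.4 CPM (log2 fold change 3.10 ± 0.78, adjusted p = 0.0284). In both, Strain replicate 1 was within the TD range and replicate 2 at least 2-fold above the next Strain library. The Cxcl9 call was lost without Strain replicate 2 (adjusted p = 0.0506). The Cxcl10 call was lost without Strain replicate 2 or TD replicates 1, 2, 3, 4 or 5 (adjusted p = 0.0551 to 0.105) and with the letter term (adjusted p = 0.0839). Gbp2, a GTPase that attacks intracellular microbes, had 29.5, 34.2, 64.2, 36.0 and 34.2 CPM and 46.7, 504, 164 and 115 CPM (adjusted p = 0.0276). For Irf1, a transcription factor of the interferon response, the values were 58.0, 61.3, 77.2, 64.7 and 64.6 CPM and 67.5, 271, 153 and 121 CPM (adjusted p = 0.0402). The same order of libraries appeared, replicate 2, then 3, 4 and 1. The Gbp2 call was lost without Strain replicate 2 or TD replicates 1, 2, 4 or 5 (adjusted p = 0.0524 to 0.0955) and with the letter term (adjusted p = 0.0899). The Irf1 call was lost without Strain replicates 2, 3 or 4 or TD replicates 1, 2, 3, 4 or 5 (adjusted p = 0.0513 to 0.143) and with the letter term (adjusted p = 0.112).

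Promoter windows of Cxcl10 and Gbp2 are shown as examples of genes that moved together from library to library. Cxcl9 and Irf1 had the same order of Strain libraries and are not shown. The genes shown were picked without a rule, so their matches do not speak for other genes. Interferon response elements have the core GAAANNGAAA. Capitals mark every match on either strand in the RefSeq windows (GRCm38.p6) of Cxcl10 (chr5:92348840-92349139, minus strand) and Gbp2 (chr3:142620413-142620712, plus strand).
Cxcl10: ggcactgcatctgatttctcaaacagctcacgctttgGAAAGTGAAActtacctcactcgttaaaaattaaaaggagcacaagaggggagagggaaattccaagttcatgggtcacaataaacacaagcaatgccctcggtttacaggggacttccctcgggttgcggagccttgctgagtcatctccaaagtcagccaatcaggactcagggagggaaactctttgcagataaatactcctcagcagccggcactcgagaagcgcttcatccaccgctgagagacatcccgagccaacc
Gbp2: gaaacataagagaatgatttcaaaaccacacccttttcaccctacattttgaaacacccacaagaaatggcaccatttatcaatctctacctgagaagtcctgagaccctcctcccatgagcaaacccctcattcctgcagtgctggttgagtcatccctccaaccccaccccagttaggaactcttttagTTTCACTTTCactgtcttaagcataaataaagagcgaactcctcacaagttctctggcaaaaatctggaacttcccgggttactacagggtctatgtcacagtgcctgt
Each window holds 1 match. The core GAAANNGAAA is present in 3.44% of 32851 RefSeq windows of the same length and in 14 of 23 genes of the interferon-stimulated list that have a window. Here too a gene was counted when any of its windows matched. This core can overlap other AG-rich motifs, and no binding was measured.

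**Figure D4:**
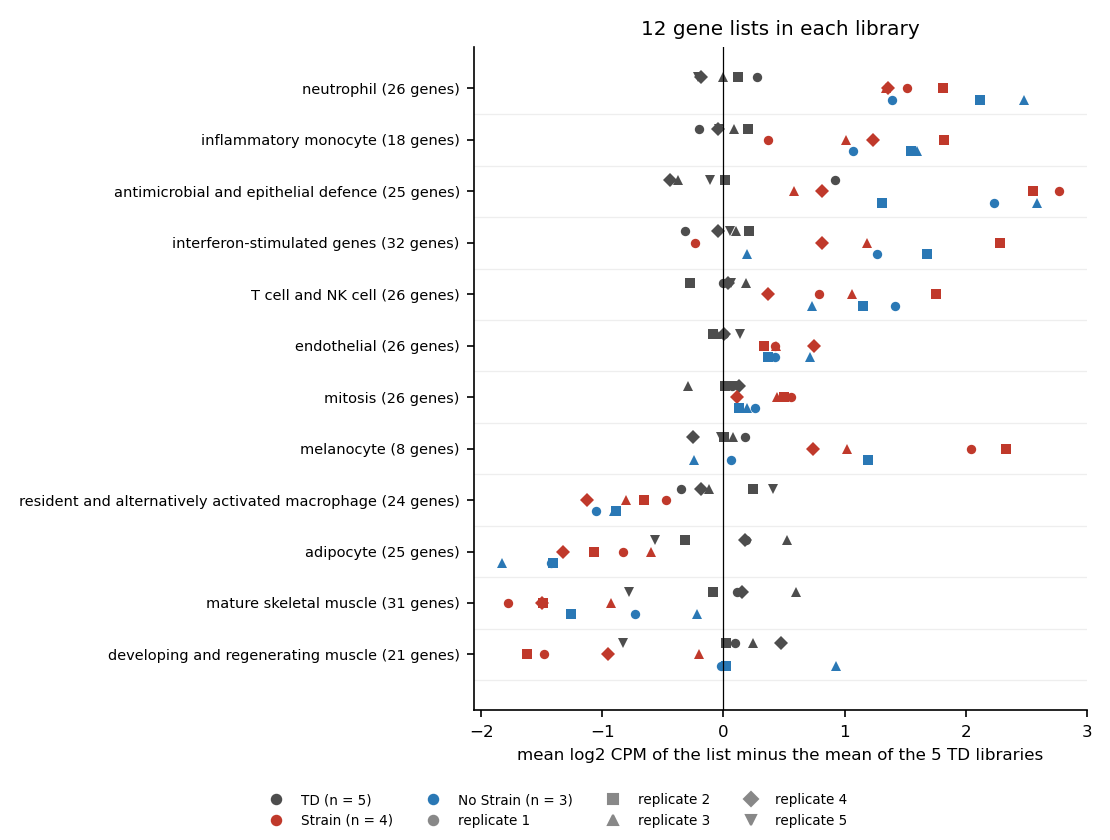
For 12 gene lists, each point is 1 library: the mean log2 CPM of the list's tested genes minus the mean of the 5 TD libraries, for TD (grey), Strain (red) and No Strain (blue), with symbols for the replicate. Neutrophil and endothelial values of the 4 Strain libraries lie together above TD, and their adipocyte and mature muscle values lie below TD. Among the Strain libraries, replicates 1 and 2 are highest for antimicrobial and epithelial defence and for melanocytes. No Strain replicate 3 lies above Strain replicate 2 for antimicrobial and epithelial defence. For interferon-stimulated genes, Strain replicate 2 is highest and Strain replicate 1 within TD.

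Lymphocyte genes rose in 13 of 26 tested members of the T cell and NK cell list, with 0 lower and a median of 1.06; the count was 5 without Strain replicate 2, 6 without TD replicate 4, 7 without TD replicates 1, 2, 3 or 5 and 7 with the letter term. Gzma, a protease of cytotoxic granules, had 1.89, 2.26, 3.58, 0.807 and 1.88 CPM in TD and 3.92, 27.2, 12.3 and 10.5 CPM under Strain (log2 fold change 2.69 ± 0.49, adjusted p = 0.00986). Gzmb, another granzyme, had 1.73, 2.18, 2.63, 2.90 and 2.58 CPM and 11.1, 14.9, 7.27 and 4.02 CPM (log2 fold change 1.95 ± 0.35, adjusted p = 0.0089). Trdc, the constant chain of the gamma-delta T cell receptor, had 4.52, 3.45, 4.94, 2.94 and 2.72 CPM and 11.8, 22.8, 7.47 and 11.9 CPM (log2 fold change 1.85 ± 0.31, adjusted p = 0.00768). None of these 3 genes overlapped between the groups. By contrast Cd3e, which all T cells carry, had 4.15, 3.94, 6.21, 4.72 and 3.59 CPM in TD and 5.11, 6.61, 5.33 and 3.50 CPM under Strain and was not called (log2 fold change 0.18 ± 0.22, adjusted p = 0.619). Blk, a kinase of B cells and of gamma-delta T cells that make interleukin 17, rose 9.41-fold, from 0.904, 0.328, 1.19, 0.524 and 0.92 CPM to 8.04, 12.0, 4.59 and 4.74 CPM (adjusted p = 0.00386). It was the 1 called member among 11 B cell and plasma cell genes, whose median was 0.06, and the count was 2 without TD replicate 1. That share was 9.09%, against 12.6% of all genes.

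Endothelial genes rose by smaller steps. Of 26 tested members 14 were higher and 0 lower, with a median of 0.52, and for 15 members the Strain and TD libraries did not overlap (14.6% of all genes). The number called was 7 with the letter term. Emcn (ENSMUSG00000054690, chr3:137341067-137432185), a sialoglycoprotein of capillaries and veins, had 17.5, 14.8, 13.1, 15.4 and 18.4 CPM in TD and 32.4, 31.2, 27.9 and 40.2 CPM under Strain (log2 fold change 1.06 ± 0.14, adjusted p = 0.0037). Plvap, a component of the diaphragms of fenestrated vessels, had 107, 106, 103, 104 and 119 CPM and 169.6, 161, 169 and 229 CPM (log2 fold change 0.76 ± 0.11, adjusted p = 0.0048). Strain replicate 4 was highest in both. Pecam1, the adhesion molecule CD31, rose from 137 ± 13.7 to 207 ± 33.2 CPM (mean ± SD of 5 and 4 libraries, adjusted p = 0.0089). Kdr, the main receptor for vascular endothelial growth factor, was not called (log2 fold change 0.25 ± 0.11, adjusted p = 0.157). Among 24 angiogenic factors and receptors 2 rose and 0 fell, a count that was 0 without Strain replicate 2 or TD replicates 2, 3 or 4, 1 without Strain replicates 1, 3 or 4 or TD replicates 1 or 5 and 0 with the letter term. The share called in this angiogenic list was 8.33%, against 12.6% of all genes.

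The epidermal lists differed in how many members were called. Of 28 wound-activated keratinocyte genes 2 rose and 0 fell (7.14%, median 0.48), and of 30 genes of differentiated epidermis 1 rose and 0 fell (3.33%). Of 14 basal keratinocyte genes 4 fell and 0 rose (28.6%), against 12.6% of all genes. The basal list's median was -0.10, with 7 members above and 7 below 0. Krt6b, a keratin of migrating and hyperproliferative keratinocytes, had 986, 644, 630.3, 699 and 781 CPM in TD and 3423, 1769, 1182 and 1249 CPM under Strain (log2 fold change 1.35 ± 0.37, adjusted p = 0.0354). All Strain libraries were above TD. The Krt6b call was lost without Strain replicates 1 or 2 or TD replicates 2, 3, 4 or 5 (adjusted p = 0.0589 to 0.0932) and with the letter term (adjusted p = 0.108). Tgm3, a crosslinking enzyme of the cornified layer, rose (1.87 ± 0.50, adjusted p = 0.0334). The Tgm3 call was lost without Strain replicates 1 or 2 or TD replicates 2, 3, 4 or 5 (adjusted p = 0.062 to 0.0897) and with the letter term (adjusted p = 0.102). Counts of these lists moved with single libraries: 0 without Strain replicates 1 or 2 or TD replicates 2, 3 or 5, 1 without TD replicate 4, 9 without Strain replicate 3 and 0 with the letter term for wound-activated keratinocytes, and 0 without Strain replicates 1 or 2 or TD replicates 2, 3, 4 or 5, 3 without Strain replicates 3 or 4 and 0 with the letter term for differentiated epidermis.

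The basal keratinocyte count was 1 without Strain replicate 2, 2 without Strain replicate 1 or TD replicates 1, 3, 4 or 5 and 0 with the letter term. Itgb4, the hemidesmosome integrin that anchors basal cells, fell from 108 ± 10.4 to 71.2 ± 14.1 CPM (mean ± SD of 5 and 4 libraries, adjusted p = 0.014), and Cxcl14 fell as well (-0.94 ± 0.21, adjusted p = 0.0181). The Itgb4 call was lost with the letter term (adjusted p = 0.0535). The Cxcl14 call was lost without Strain replicate 2 (adjusted p = 0.0614) and with the letter term (adjusted p = 0.062). The basal keratins themselves were not called: Krt14 changed by 0.76 ± 0.28 (adjusted p = 0.0942) and Krt5 by 0.23 ± 0.25 (adjusted p = 0.574). Of 20 hair follicle genes 4 fell and 0 rose (median -1.03), among them Lgr5, a marker of follicle stem cells, with 34.2, 38.5, 55.1, 45.6 and 34.4 CPM in TD and 15.6, 13.4, 26.8 and 14.8 CPM under Strain (adjusted p = 0.0383). The Lgr5 call was lost without Strain replicates 1, 2 or 4 or TD replicates 1, 2, 3 or 4 (adjusted p = 0.0531 to 0.115) and with the letter term (adjusted p = 0.122). The list's count was 0 without Strain replicates 2 or 4 or TD replicates 1 or 4, 1 without Strain replicate 1 or TD replicates 2 or 3 and 0 with the letter term.

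Pigment cell genes rose in 6 of 8 tested members, 0 fell, and the median was 1.81. Tyrp1, an enzyme of melanin synthesis, had 2.01, 2.50, 2.15, 1.01 and 1.84 CPM in TD and 14.3, 21.3, 5.48 and 4.55 CPM under Strain (log2 fold change 2.58 ± 0.52, adjusted p = 0.0132). Pmel, which forms the fibrils on which melanin is laid down, had 3.78, 3.24, 2.91, 2.10 and 3.50 CPM and 13.5, 15.2, 6.38 and 4.79 CPM (log2 fold change 1.68 ± 0.39, adjusted p = 0.0204). Strain replicates 1 and 2 were highest in both genes and no Strain library overlapped TD. The summed level of all 10 genes of the list, tested or not, was 47.8 to 60.4 CPM in TD and 66.0 to 129 CPM under Strain. The list's count was 1 without Strain replicate 2 or with the letter term. It was 2 without Strain replicate 1 or TD replicate 4 and 3 without TD replicates 1, 3 or 5. The Tyrp1 call was lost with the letter term (adjusted p = 0.0739). The Pmel call was lost without Strain replicate 2 or TD replicate 4 (adjusted p = 0.051 to 0.0706) and with the letter term (adjusted p = 0.0957).

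Adipocyte genes fell in 16 of 25 tested members and rose in 0, with a median of -1.32; the count was 8 without Strain replicate 2, 9 without TD replicates 3 or 4, 10 without Strain replicate 4 and 9 with the letter term. Lep (ENSMUSG00000059201, chr6:29060220-29073877) encodes leptin, the fat hormone whose receptor is mutated in these mice. Its CPM was 293, 179.6, 344, 258 and 99.6 in TD and 89.0, 61.9, 78.6 and 41.7 under Strain. No library overlapped, and the level was 3.46-fold lower (log2 fold change -1.79 ± 0.35, adjusted p = 0.0122). Car3, a carbonic anhydrase abundant in fat and slow muscle, had 1041, 666, 1579, 1270.1 and 622 CPM and 428, 270.5, 248 and 181 CPM (log2 fold change -1.88 ± 0.35, adjusted p = 0.0107). Plin4, a coat protein of lipid droplets, had 229.6, 166, 294, 191 and 101 CPM and 80.0, 56.0, 91.2 and 43.7 CPM (log2 fold change -1.53 ± 0.32, adjusted p = 0.0147). In each of the 3 genes TD replicate 5 was the lowest TD library and still above every Strain library. The summed level of the list was 4695 to 8628 CPM in TD and 2898 to 4048 CPM under Strain. Adipoq, which encodes adiponectin, fell (log2 fold change -1.50 ± 0.45, adjusted p = 0.0482), but its groups overlapped. The Adipoq call was lost without Strain replicates 1, 2, 3 or 4 or TD replicates 1, 2, 3 or 4 (adjusted p = 0.0596 to 0.132) and with the letter term (adjusted p = 0.102). Fabp4, the most abundant fatty acid binder of fat, was not called (log2 fold change -0.68 ± 0.21, adjusted p = 0.0595).

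Lipid and insulin pathway genes were mostly lower where called. Several are abundant in fat or muscle, whose lists differed between the groups, and the part of those tissues in these falls was not tested gene by gene. Among 22 genes of fatty acid and triglyceride synthesis 4 fell and 0 rose (2 without Strain replicate 2, 8 without TD replicate 5, 11 without Strain replicate 3 and 2 with the letter term), including Mlxipl, the glucose-sensing transcription factor ChREBP (-1.32 ± 0.22, adjusted p = 0.00727). Of 29 genes of insulin and IGF signalling 7 fell and 3 rose (5 without Strain replicate 2, 6 without Strain replicate 1 or TD replicates 2, 3 or 4 and 2 with the letter term). Slc2a4, the insulin-regulated glucose transporter of fat and muscle, had 33.9, 26.8, 52.9, 30.6 and 17.0 CPM in TD and 13.8, 9.89, 14.5 and 10.9 CPM under Strain, without overlap (log2 fold change -1.39 ± 0.28, adjusted p = 0.0138). Fatty acid oxidation and the TCA cycle had 10 lower and 0 higher members of 35, a count that was 3 without Strain replicate 2, 4 without Strain replicate 4 or TD replicates 1 or 3, 5 without Strain replicate 1, 6 without TD replicate 4 and 1 with the letter term.

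Mature skeletal muscle genes fell in 25 of 31 tested members, with 0 higher and a median of -1.49; the count was 11 without Strain replicate 2, 16 without Strain replicate 4 and 12 with the letter term. Their summed level was 8861 to 22168 CPM in TD and 4232 to 8230.5 CPM under Strain. Ckm, the creatine kinase of muscle, had 519, 484, 669, 439 and 305 CPM in TD and 129, 183, 170.5 and 142 CPM under Strain (log2 fold change -1.63 ± 0.29, adjusted p = 0.00899). Pygm, which releases glucose from muscle glycogen, had 364, 301, 514, 339 and 244 CPM and 74.4, 119.7, 88.0 and 69.4 CPM (log2 fold change -2.00 ± 0.27, adjusted p = 0.00386). The lowest TD library, replicate 5, was above the highest Strain library in both. Acta1, the actin of muscle fibres, fell from 3015 ± 977 to 1109 ± 417 CPM (mean ± SD of 5 and 4 libraries, adjusted p = 0.0246). The Acta1 call was lost without Strain replicates 1, 2 or 4 or TD replicates 3 or 4 (adjusted p = 0.0505 to 0.08) and with the letter term (adjusted p = 0.0717).

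Genes of developing muscle were less uniform: 5 of 21 fell and 0 rose (median -0.90), and the count was 1 without Strain replicates 1 or 2 or TD replicates 1, 2, 3 or 4, 2 without Strain replicate 4, 11 without Strain replicate 3 and 2 with the letter term. Myh8 (ENSMUSG00000055775, chr11:67277124-67308634), the perinatal myosin of newly formed fibres, had 122, 149, 114, 138 and 73.7 CPM in TD and 39.1, 42.5, 47.9 and 32.8 CPM under Strain, with no overlap (log2 fold change -1.56 ± 0.22, adjusted p = 0.00463). Myog, a transcription factor of muscle differentiation, was not called: it had 13.9, 13.5, 16.7, 17.9 and 8.06 CPM in TD and 3.67, 4.14, 20.5 and 9.53 CPM under Strain, with replicate 3 above all TD libraries (adjusted p = 0.464).

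Muscle isoforms parted from general isoforms within the same pathways. In glycolysis, Eno3, the muscle enolase, had 365, 289, 477, 337 and 229 CPM in TD and 75.3, 117, 109 and 73.0 CPM under Strain (log2 fold change -1.86 ± 0.25, adjusted p = 0.00386). Pfkm, the muscle phosphofructokinase, fell (-1.64 ± 0.20, adjusted p = 0.00251). Eno1, the widely expressed enolase, rose from 566 ± 80.1 to 775 ± 121 CPM (mean ± SD of 5 and 4 libraries, adjusted p = 0.0385). The Eno1 call was lost without Strain replicates 1 or 2 or TD replicates 2, 3, 4 or 5 (adjusted p = 0.0551 to 0.13) and with the letter term (adjusted p = 0.151). Pkm rose (0.37 ± 0.09, adjusted p = 0.0235). The Pkm call was lost without Strain replicates 1 or 2 or TD replicates 2 or 3 (adjusted p = 0.051 to 0.0786) and with the letter term (adjusted p = 0.102). The glycolysis list had 3 of 24 higher and 4 lower (4 without Strain replicate 2 or TD replicate 2 and 4 with the letter term). Its median was 0.16, with 18 members above 0. In the respiratory chain, 7 of 59 rose and 3 fell, 16.9% against 12.6% of all genes, with a median of 0.07. The count was 3 without Strain replicate 2, 4 without Strain replicate 1 or TD replicates 2, 4 or 5, 6 without Strain replicate 3 and 2 with the letter term. The 3 falls were Cox8b (-2.09 ± 0.33), Cox7a1 (-1.94 ± 0.25) and Cox6a2 (-1.45 ± 0.33), with adjusted p of 0.00647, 0.0037 and 0.0191. They are the heart and muscle isoforms of cytochrome c oxidase subunits. The Cox6a2 call was lost without Strain replicate 2 (adjusted p = 0.0633) and with the letter term (adjusted p = 0.0556).

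The share of counts from muscle genes differed between the groups. A further fit therefore held the mean level of the mature muscle list as a covariate. Under that fit 3 genes were called, Retnla, Gsn and Irf4, and the median standard error over all genes rose from 0.153 to 0.272. Irf4, a transcription factor of lymphocytes and alternatively activated macrophages, is named here after its values were seen. Medians of the neutrophil (1.83), inflammatory monocyte (1.22), T cell and NK cell (0.97) and endothelial lists (0.51) stayed within 0.10 of those above. Of the 69 lists other than mature muscle, 10 had a median of the other sign in this fit. The adipocyte median became -0.43, the melanocyte median 0.41 and the interferon-stimulated median 0.71, while that of developing muscle turned from -0.90 to 0.37. Medians of several further lists moved towards 0. Among the lower ones were fatty acid and triglyceride synthesis (-0.58 to -0.09), fatty acid oxidation and the TCA cycle (-0.18 to 0.00) and the circadian clock (-0.35 to -0.04). Among the higher ones were antimicrobial and epithelial defence (1.92 to 1.59), mitosis (0.43 to 0.27) and the cytosolic ribosome (0.27 to 0.21). Others moved away from it, among them collagens from -0.25 to -0.59 and resident and alternatively activated macrophages from -0.60 to -0.77. Retnla changed by -5.32 ± 0.30 in this fit (adjusted p = 5.99e-05) and Gsn, the actin-severing protein gelsolin, by -1.24 ± 0.15 (adjusted p = 0.0499). The covariate and the groups are themselves associated, so their shares in a change cannot be told apart.

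**Figure D5:**
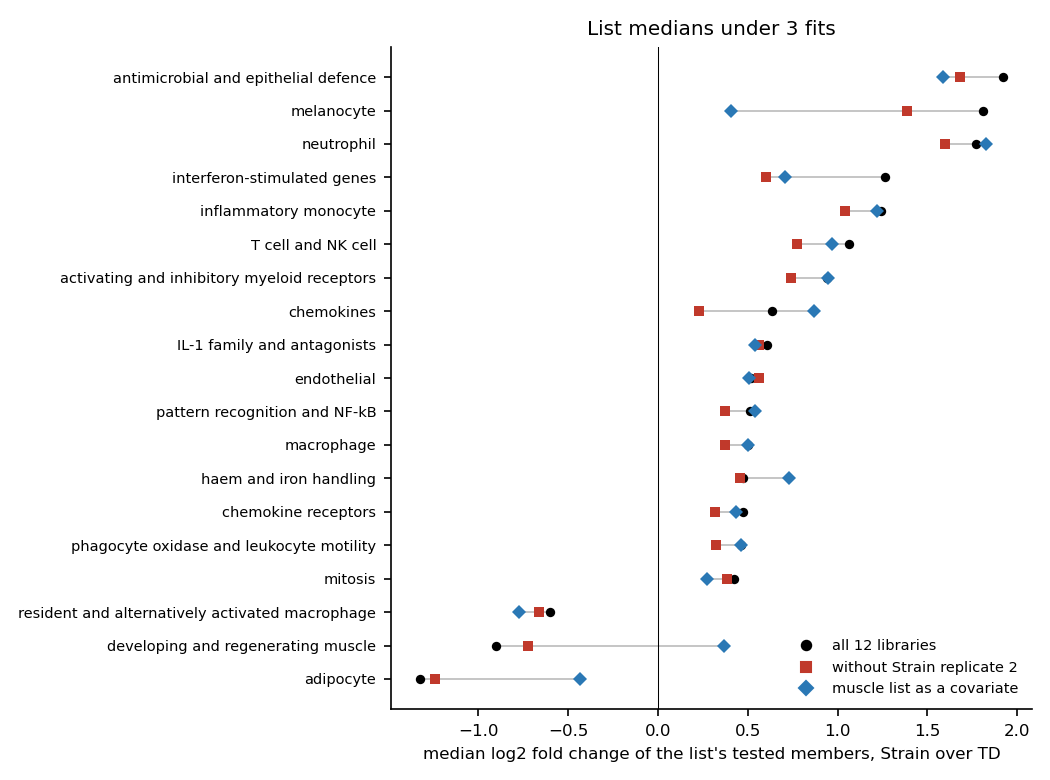
For 19 lists with at least 5 called members and a median of at least 0.4 in size, points give the median log2 fold change of Strain over TD in 3 fits: all 12 libraries (black circles), without Strain replicate 2 (red squares) and with the mature muscle list as a covariate (blue diamonds). Medians of neutrophil, monocyte, T cell and endothelial lists lie close together in the fits, while those of adipocyte, melanocyte and developing muscle lists move towards or past 0 with the covariate.

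Against 12.6% of all genes, 23.3% of 30 collagens, 23.8% of 21 matrix metalloproteinases and their inhibitors, 14.8% of 27 elastic fibre and proteoglycan genes and 8.33% of 24 collagen-processing genes were called. The main fibrillar collagens were not among them: Col1a1 changed by -0.14 ± 0.20 (adjusted p = 0.679) and Col3a1 by -0.01 ± 0.19 (adjusted p = 0.984), and TD replicate 3 was the lowest TD library for both. Of the 30 collagens 6 fell (6.41% of all genes were lower) and 1 rose, a count that was 3 without Strain replicates 1 or 2 or TD replicates 3 or 4 and 3 with the letter term. Col8a1 and Col8a2, the chains of a short-chain collagen of vessel walls and basement membranes, both fell. Col8a1 had 139, 141, 152, 218 and 120.3 CPM in TD and 46.5, 34.9, 92.0 and 68.2 CPM under Strain (log2 fold change -1.35 ± 0.26, adjusted p = 0.0116). For Col8a2 the values were 19.7, 15.1, 29.1, 30.1 and 12.8 CPM and 6.55, 3.51, 8.01 and 4.79 CPM (log2 fold change -1.90 ± 0.35, adjusted p = 0.0103). Neither overlapped between the groups. Pcolce2, which enhances the processing of procollagen, fell from 77.8 ± 18.0 to 22.5 ± 1.86 CPM (mean ± SD of 5 and 4 libraries, adjusted p = 0.00452), 1 of 2 lower among 24 collagen-processing genes (1 without Strain replicate 2 and 1 with the letter term). Of the elastic fibre and proteoglycan genes 4 fell and 0 rose, and the count was 2 without Strain replicate 2 or TD replicates 1, 3 or 4 and 1 with the letter term.

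Among 21 matrix metalloproteinases and their inhibitors 4 rose and 1 fell. The list's median was -0.17, with 12 members below 0. The number called was 2 without Strain replicate 1, without TD replicates 2 or 3 or with the letter term. It was 3 without Strain replicate 2 or TD replicates 4 or 5. Besides Mmp8, Mmp9, a gelatinase of leukocytes and wound edges, rose from 89.6 ± 26.6 to 182 ± 42.4 CPM (mean ± SD of 5 and 4 libraries, adjusted p = 0.0282). The Mmp9 call was lost without Strain replicates 1 or 4 or TD replicates 2, 3 or 5 (adjusted p = 0.0535 to 0.0632) and with the letter term (adjusted p = 0.126). Mmp3, stromelysin, rose (1.14 ± 0.32, adjusted p = 0.0411). The Mmp3 call was lost without Strain replicates 1, 2 or 4 or TD replicates 1, 2, 3, 4 or 5 (adjusted p = 0.0571 to 0.132) and with the letter term (adjusted p = 0.201). Timp3, an inhibitor bound to the matrix, fell from 174 ± 14.0 to 97.5 ± 20.5 CPM (mean ± SD of 5 and 4 libraries, adjusted p = 0.0082).

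Of the lists tied to force sensing, 2 held a smaller share of called genes than the 12.6% of all genes, YAP/TAZ targets with 9.52% and mechanosensitive channels with 8.33%, each resting on 1 or 2 genes. The actin cytoskeleton and focal adhesion list held a larger share, 21.9%. Of 21 YAP/TAZ target genes, the transcription cofactors that respond to tension, 2 fell and 0 rose (median -0.10); Ptpn14, a phosphatase that restrains YAP, was 1 of them (log2 fold change -0.92 ± 0.17, adjusted p = 0.00908). Of 12 mechanosensitive channels 1 fell, the potassium channel gene Kcnk2 (-1.11 ± 0.30, adjusted p = 0.0327). The Kcnk2 call was lost without Strain replicates 1, 2 or 4 or TD replicates 1, 3 or 4 (adjusted p = 0.0561 to 0.0702) and with the letter term (adjusted p = 0.103). The number of called channels was 0 without Strain replicates 1, 2 or 4 or TD replicates 3 or 4, 2 without Strain replicate 3 and 0 with the letter term. Piezo1, the main stretch-activated cation channel, had 126, 172, 154, 162 and 173 CPM in TD and 130.2, 130.1, 132 and 149.6 CPM under Strain and was not called (log2 fold change -0.22 ± 0.10, adjusted p = 0.167). In the actin and focal adhesion list 5 of 32 fell and 2 rose, and the count was 2 without Strain replicate 2 and 2 with the letter term. Gsn had 2012, 2215, 2402, 1889.7 and 2163 CPM in TD and 821, 900.1, 900.4 and 828 CPM under Strain, in 2 narrow and separate ranges (log2 fold change -1.31 ± 0.09, adjusted p = 4.33e-05).

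Signalling genes of skin patterning were mostly lower where called. Of 44 WNT pathway genes 10 fell and 1 rose (median -0.24; 6 without Strain replicate 2, 7 without Strain replicate 1 or TD replicate 3 and 5 with the letter term). Wnt11, a ligand of the non-canonical branch, had 13.9, 14.0, 10.3, 10.5 and 12.2 CPM in TD and 5.26, 3.87, 3.85 and 5.89 CPM under Strain (log2 fold change -1.37 ± 0.19, adjusted p = 0.00386). Sfrp5, a secreted WNT antagonist of fat, had 27.2, 28.3, 35.0, 21.5 and 14.5 CPM and 7.20, 11.4, 4.36 and 6.37 CPM (log2 fold change -1.79 ± 0.36, adjusted p = 0.0137). Both were lower in every Strain library. The Sfrp5 call was lost with the letter term (adjusted p = 0.0533). Wnt10b, which restrains fat cell formation and acts in hair growth, fell (-1.15 ± 0.27, adjusted p = 0.023). The Wnt10b call was lost without Strain replicate 2 (adjusted p = 0.073). The 1 member that rose, Sfrp2, an antagonist made by dermal fibroblasts, had 224, 318, 122, 311 and 258 CPM in TD and 639, 386, 348 and 868 CPM under Strain (adjusted p = 0.0312). The Sfrp2 call was lost without Strain replicates 1 or 4 or TD replicates 1, 3 or 5 (adjusted p = 0.0505 to 0.0742) and with the letter term (adjusted p = 0.158).

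Of 34 TGF-beta, activin and BMP genes 6 fell and 2 rose (3 called without Strain replicate 2 and 4 with the letter term). Tgfb3, a ligand linked to regenerative repair, fell from 54.6 ± 9.66 to 30.0 ± 7.68 CPM (mean ± SD of 5 and 4 libraries, adjusted p = 0.0147). The Tgfb3 call was lost with the letter term (adjusted p = 0.0541). Bmp4 (-1.35 ± 0.32, adjusted p = 0.0216) and Nog, its secreted antagonist (-1.80 ± 0.40, adjusted p = 0.017), both fell. The Bmp4 call was lost without Strain replicates 1 or 2 (adjusted p = 0.0512 to 0.0717) and with the letter term (adjusted p = 0.0572) and the Nog call without Strain replicate 2 (adjusted p = 0.0541). In EGF, FGF and PDGF signalling 4 of 30 fell and 0 rose (2 without Strain replicate 2, 7 without Strain replicate 3 and 1 with the letter term), with Fgf18, a factor of hair follicles and cartilage, at 6.66, 4.60, 9.68, 6.49 and 5.91 CPM in TD and 1.94, 1.03, 1.91 and 2.92 CPM under Strain (log2 fold change -1.77 ± 0.31, adjusted p = 0.00795). The share called in the EGF, FGF and PDGF list was 13.3%, against 12.6% of all genes.

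Genes of cell division and of ribosomes rose by small steps. Of 26 mitosis genes 14 rose and 0 fell (median 0.43), but this count was 1 without Strain replicate 2, 4 without Strain replicate 1, 5 without TD replicate 2, 7 without TD replicate 3, 8 without TD replicate 4 and 1 with the letter term. Ccnb1, cyclin B1, rose from 18.6 ± 2.36 to 27.7 ± 5.08 CPM (mean ± SD of 5 and 4 libraries, adjusted p = 0.0189). The Ccnb1 call was lost without Strain replicate 2 (adjusted p = 0.068) and with the letter term (adjusted p = 0.0646). Mki67, which encodes the proliferation antigen Ki-67, rose (0.52 ± 0.13, adjusted p = 0.0288). The Mki67 call was lost without Strain replicates 1 or 2 or TD replicates 2 or 3 (adjusted p = 0.0601 to 0.1) and with the letter term (adjusted p = 0.097). Of 24 S phase genes 7 rose and 0 fell (median 0.28), a count that was 2 without Strain replicates 1 or 2, 3 without TD replicates 2 or 3, 4 without Strain replicate 3 or TD replicate 1 and 4 with the letter term. Of 42 cytosolic ribosomal protein genes 24 rose and 0 fell with a median of only 0.27, and the count was 2 without Strain replicate 2, 4 without TD replicate 2, 6 without TD replicate 4, 7 without Strain replicate 1, 8 without TD replicate 3 and 1 with the letter term. These genes have many pseudogenes with which reads may be shared. Rpl38 rose by 0.37 ± 0.10 (adjusted p = 0.029). The Rpl38 call was lost without Strain replicates 1, 2 or 4 or TD replicates 2 or 3 (adjusted p = 0.051 to 0.0955) and with the letter term (adjusted p = 0.0995).

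Lists of stress responses did not all go one way. Of 25 genes of the unfolded protein and heat shock response 2 rose and 2 fell, with a median of 0.08. That share, 16.0%, was near the 12.6% of all genes. The count was 0 without Strain replicate 2 or TD replicate 3 and 1 without Strain replicate 4 or TD replicate 4. It was 2 without Strain replicate 1 or TD replicates 1, 2 or 5 and 0 with the letter term. Slc7a11, the cystine importer that feeds glutathione synthesis, had 21.8, 18.7, 16.3, 13.3 and 11.3 CPM in TD and 120.3, 124, 31.7 and 59.5 CPM under Strain (log2 fold change 2.36 ± 0.35, adjusted p = 0.00539). All Strain libraries were above TD, replicates 1 and 2 most of all, and the antioxidant list had 7 of 29 members higher and 0 lower (4 called without Strain replicate 2 or with the letter term). Hif1a, the oxygen-regulated transcription factor, rose from 202 ± 24.3 to 348 ± 62.1 CPM (mean ± SD of 5 and 4 libraries, adjusted p = 0.00768), 1 of 2 higher among 21 hypoxia genes (1 without Strain replicates 1 or 2 or TD replicates 2, 3 or 4, 4 without Strain replicate 4 and 1 with the letter term). The share called in the hypoxia list was 9.52%, against 12.6% of all genes. In the BCL2 family 5 of 18 rose and 1 fell. Bcl2l11, which encodes the cell death protein BIM, had 32.0, 34.4, 32.1, 32.0 and 35.2 CPM in TD and 51.6, 50.2, 48.2 and 57.2 CPM under Strain (log2 fold change 0.64 ± 0.06, adjusted p = 0.000996). Of 19 circadian clock genes 4 fell and 0 rose (2 called without Strain replicate 4, TD replicate 1 or TD replicate 3, or with the letter term), and the hour of collection is not given in the labels. Tef, an output factor of the clock, fell from 105 ± 16.0 to 60.1 ± 15.1 CPM (mean ± SD of 5 and 4 libraries, adjusted p = 0.0122). Cry2, a repressor of the clock, fell (-0.51 ± 0.10, adjusted p = 0.0116), and Dbp fell (-0.91 ± 0.24, adjusted p = 0.0333). The Dbp call was lost without Strain replicate 4 or TD replicates 1, 2, 3, 4 or 5 (adjusted p = 0.0503 to 0.0728) and with the letter term (adjusted p = 0.102).

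Most called genes, 1951, belonged to no list. Among called protein-coding genes with at least 5 CPM in the higher group and no overlap, the 12 largest rises included Serpinb3d, an epidermal protease inhibitor with close copies, at 0.205, 0.205, 0.0796, 0.0807 and 0 CPM in TD and 20.0, 8.27, 0.272 and 0.718 CPM under Strain (adjusted p = 0.0159). Only Strain replicates 1 and 2 exceeded 1 CPM for this gene. The Serpinb3d call was lost with the letter term (adjusted p = 0.0869). Ly6i, a surface protein of monocytes from the same family as Ly6c2, had 0.452, 0.41, 0.995, 0.565 and 0.131 CPM and 1.99, 22.8, 10.4 and 5.65 CPM (log2 fold change 4.30 ± 0.72, adjusted p = 0.00748). Calhm6, a channel protein of activated macrophages, had 1.36, 1.64, 2.11, 1.69 and 1.58 CPM and 2.88, 28.1, 13.3 and 7.80 CPM (log2 fold change 2.96 ± 0.55, adjusted p = 0.0103). Serpina3f (2.88 ± 0.61, adjusted p = 0.0153), Ms4a4c (2.81 ± 0.52, adjusted p = 0.0101) and Ifi206 (2.67 ± 0.61, adjusted p = 0.0204) also belonged to the 12; all 3 have close copies, and Strain replicate 2 was highest in each. The Serpina3f call was lost with the letter term (adjusted p = 0.0556). The Ifi206 call was lost without Strain replicate 2 or TD replicate 4 (adjusted p = 0.0504 to 0.0614) and with the letter term (adjusted p = 0.0584).

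The 12 largest falls by the same rule included Mrgprg, a receptor gene of the Mas-related family known from sensory neurons, at 11.3, 15.8, 8.84, 3.95 and 32.5 CPM in TD and 1.84, 0.495, 0.0389 and 0.862 CPM under Strain (log2 fold change -4.20 ± 0.82, adjusted p = 0.012). Pyy, which encodes the gut hormone peptide YY, had 5.79, 10.3, 14.1, 7.14 and 12.9 CPM in TD and 0.0993, 0, 3.03 and 0.0479 CPM under Strain, where replicate 3 alone passed 1 CPM. The Pyy call (adjusted p = 0.031) was lost without Strain replicates 1, 2 or 4 or TD replicates 2, 3, 4 or 5 (adjusted p = 0.0513 to 0.0726). Mstn, the inhibitor of muscle growth myostatin, had 11.2, 15.7, 27.3, 9.32 and 9.55 CPM and 1.94, 4.95, 1.05 and 1.58 CPM (log2 fold change -2.62 ± 0.52, adjusted p = 0.0123). The Mstn call was lost with the letter term (adjusted p = 0.0568). Nos1, neuronal nitric oxide synthase, which muscle fibres also carry, had 16.7, 12.2, 26.4, 19.3 and 11.3 CPM and 2.33, 3.33, 2.61 and 2.06 CPM (log2 fold change -2.73 ± 0.29, adjusted p = 0.00186). The myosin kinase gene Mylk2 fell 6.33-fold (adjusted p = 0.00386). Fbp2, a gluconeogenic enzyme of muscle, fell 6.60-fold (adjusted p = 0.00539). Myoc, a secreted glycoprotein best known from the eye, fell from 36.6 ± 14.8 to 5.26 ± 2.20 CPM (mean ± SD of 5 and 4 libraries, adjusted p = 0.00439). Scd3, a fatty acid desaturase of the sebaceous gland, fell (-2.71 ± 0.80, adjusted p = 0.0476). The Scd3 call was lost without Strain replicates 1, 2 or 4 or TD replicates 1, 2, 3, 4 or 5 (adjusted p = 0.0631 to 0.125) and with the letter term (adjusted p = 0.107).

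The direct test between the patches asks what strain added to the patch. For Strain against No Strain, edgeR called 0 of 18618 genes (0%). An unadjusted p under 0.05 was found for 1045 genes, and DESeq2 called 28 and limma-voom 0. Strain and No Strain share the TD libraries as their baseline, so their changes are set side by side without a test of likeness. Against TD, the No Strain median was 2.41 for the neutrophil, 1.57 for the inflammatory monocyte, 1.05 for the interferon-stimulated and -1.76 for the adipocyte list. Under Strain these medians were 1.77, 1.24, 1.26 and -1.32 in that order. For developing muscle the signs differed, with 0.26 in No Strain and -0.90 under Strain. Retnla had 1.03, 0.771 and 0.371 CPM in No Strain, Mmp8 17.4, 66.3 and 48.4 CPM, Cxcl9 255, 229 and 38.4 CPM and Emcn 26.7, 27.3 and 36.4 CPM, each with a mean on the same side of TD as Strain. Between the patches, Strain minus No Strain was 0.97 ± 0.31 for Retnla (adjusted p = 0.872), -1.36 ± 0.40 for Mmp8 (adjusted p = 0.872) and 0.13 ± 0.15 for Emcn (adjusted p = 0.958). An adjusted p above the threshold does not show that the patches gave the same level.

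Some groups had values that lay further apart between the patches, without passing the test. Lep had 20.9, 37.8 and 26.3 CPM in No Strain, below Strain in every library (1.26 ± 0.40, unadjusted p = 0.00881, adjusted p = 0.872). An unadjusted p under 0.05 between the patches was found for 5.61% of all genes, and the share was highest in 5 of the 70 lists. In 2 of them Strain was the lower: 14 of 21 genes of developing muscle (median -1.19) and 10 of 31 of mature skeletal muscle (median -0.71). In 3 it was the higher: 6 of 8 melanocyte genes (median 1.44), 5 of 8 erythroid and platelet genes (median 1.07) and 10 of 25 adipocyte genes (median 0.45). Myh8 had 130.2, 84.4 and 153 CPM in No Strain, where replicate 3 lay above the highest TD library and the other two within the TD range (-1.59 ± 0.24, adjusted p = 0.402). Tyrp1 had 2.11, 7.03 and 2.18 CPM in No Strain (1.59 ± 0.59, adjusted p = 0.872).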

How the data were processed

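RNA of whole wound tissue was sequenced from oligo(dT)-selected libraries (NEBNext Ultra kit), per the labels' protocols. The submitters' processing notes name bcl2fastq 2.17, FastQC, cutadapt, STAR, featureCounts, DESeq2 and GRCm38; the annotation release, strand setting and treatment of reads with several matches are not given in the sources used here. The authors deposited raw read counts per gene, 1 file per library, and 54165 of 54232 identifiers had a symbol in GENCODE M21 (GRCm38). Counts were filtered (edgeR filterByExpr, minimum count 10, minimum total 15), scaled by TMM and fitted with edgeR 4.0.16 in R 4.3.3 as quasi-likelihood models with 1 coefficient for each of the 3 groups and robust dispersion; the adjustment was Benjamini-Hochberg over all genes tested. Log2 CPM values of lists and libraries used a prior count of 2. On simulated counts of 18288 genes, 66.7% of changes of 1 and 92.8% of changes of 2 log2 units were recovered for Strain against TD, with 5.45% false calls. The simulation changed only a small part of the genes and drew each gene independently. In the real data many more genes were called and single libraries moved whole lists, so these rates need not hold there. The alternatives used DESeq2 1.42.0, limma 3.58.1 (voom), other scalings and filters, a covariate, and leaving out each library.

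The gene lists and the rule for named genes were chosen with earlier results of these data known. The rule took the 12 largest rises and falls among called protein-coding genes without overlap and with at least 5 CPM, up to 4 called members in each direction (at least 1 CPM) and the 3 most abundant members of each list, the first 3 markers of each cell type list, and Lepr. Irf4 was named after its values were seen. Reads of genes with close copies (the Ly6, Serpina3, Serpinb3, Ms4a4, Ifi200, Ear, beta-defensin and ribosomal protein families) are uncertain. So are those of genes whose exons overlap another gene, since the kit does not mark strand: of those named here, this holds for more than 10% of the exon length of Ltc4s, Piezo1, Timp3, Dbp, Sfrp2, Ckm, Pkm, Kcnk2, Tgfb3, Pfkm and Cox6a2. Promoter sequences are from RefSeq (GRCm38.p6).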

Additional observations from a re-analysis of the deposited data

Results flagged for a closer look

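Of 420 group values examined (the level of each list and of each named gene in the 4 Strain and in the 5 TD libraries), 20 held 1 library whose gap to its nearest neighbour was large for the range of its group. Chance alone gives such a gap in about 5% of groups. TD replicate 3 was that library in 8 cases, Strain replicate 3 in 4 and TD replicate 1 in 3. Values below are log2 CPM, and no explanation was tested.

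Among mean levels of lists, lipid-handling macrophage genes stood at 8.79 in Strain replicate 1, with the next Strain library at 9.02. Chemokine genes stood at 4.65 in Strain replicate 2, against 3.95 in the next. Activating and inhibitory myeloid receptors stood at 3.34 in TD replicate 1, against 3.96. In TD replicate 3, collagen processing was lowest at 6.49 (next 6.94), elastic fibre and proteoglycans at 7.14 (next 7.42) and mitosis at 3.71 (next 4.01).

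Among single genes, TD replicate 3 was highest for the collagenase gene Mmp8 at 2.83 (next 1.87), for Gbp2 at 6.01 (next 5.17) and for Dbp at 4.69 (next 4.26), and lowest for Col1a1 at 13.49 (next 14.00) and Ccnb1 at 3.87 (next 4.24). TD replicate 1 was highest for S100a8 at 9.39 (next 7.64) and for Il17f at -1.01 (next -2.97). Strain replicate 3 was lowest for Cxcr2 at 4.10 (next 4.85) and Csf3 at 0.28 (next 2.14), and highest for Fabp4 at 9.57 (next 9.16) and Cspg4 at 4.87 (next 4.68). Plvap was highest in TD replicate 5 at 6.89 (next 6.75) and in Strain replicate 4 at 7.84 (next 7.41), and Piezo1 was highest in Strain replicate 4 at 7.23 (next 7.04).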

How the results depend on the processing

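For Strain against TD, the main count of 2349 called genes became 860 with a minimum change of 1 log2 unit, 1527 without a filter on low counts (35687 genes tested), 798 with the letter of the sample titles as a covariate and 3 with the muscle list as a covariate; leaving out 1 library gave 882 to 2458. The letter falls as 1 L and 4 R in TD and 3 L and 1 R under Strain, so letter and treatment are partly confounded. Called genes without overlap, 1857, became 652, 726 and 3 with the minimum change, the letter and the muscle list, and 864 to 2230 without 1 library. Of these counts' causes none was tested beyond the larger standard errors with the muscle covariate and the larger number of genes without the filter. The share of higher calls was 49.2%, and it was 44.7% with library totals alone and 0% among the 3 calls with the muscle covariate. DESeq2 called 3518 genes, limma-voom 1869 and the fit of the 9 libraries alone 2111. For No Strain against TD, 3305 genes were called, 1254 with the minimum change, 1096 with the muscle list, 2145 with the letter and 1505 to 3415 without 1 library. For Strain against No Strain, DESeq2 called 28 and edgeR 0 in every fit that left out 1 library. Of 127 named genes called, DESeq2 kept the call of all 127, limma-voom of 114 and the fit without Strain replicate 2 of 88. The letter covariate kept 74 and the muscle covariate 2 of 122 (the 5 others belong to that list). In no alternative was a named gene called in the opposite direction, but genes that lost their call were counted as lost whatever their sign. Under the muscle covariate few calls were left to show a reversal, and 10 of 69 list medians took the other sign. The muscle share differed in the same direction with its 3 defining markers alone (exact two-sided permutation p = 0.0159). No paired analysis was possible because the labels give no replicate numbers shared between groups. Depth limits genes such as Il17f, Il17a, Ngp, Ly6g, Csf3 and Cd300e, which had few reads in TD.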

Other observations

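Iron and haem handling genes were higher in 5 of 19 tested members and lower in 1, with a median of 0.48 under Strain against TD, and the count was 2 without Strain replicate 2, 3 without TD replicate 2 and 0 with the letter term. Fth1, the heavy chain of the iron store ferritin, rose from 1199 ± 95.1 to 1865 ± 310.4 CPM (mean ± SD of 5 and 4 libraries, adjusted p = 0.0137). The Fth1 call was lost with the letter term (adjusted p = 0.0565). Cp encodes ceruloplasmin, which oxidises iron for export, and had 56.6, 62.1, 46.5, 45.5 and 49.1 CPM in TD and 127, 168, 83.6 and 96.5 CPM under Strain (log2 fold change 1.19 ± 0.24, adjusted p = 0.0123). The Cp call was lost with the letter term (adjusted p = 0.0567). The plasma haem scavenger gene Hpx rose (1.86 ± 0.45, adjusted p = 0.0243). The Hpx call was lost without Strain replicate 2 or TD replicate 2 (adjusted p = 0.0519 to 0.0539) and with the letter term (adjusted p = 0.0688).

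Genes of the phagocyte oxidase and of leukocyte motility rose in 9 of 26 cases and fell in 0, a count that was 1 without Strain replicate 2, 3 without TD replicates 3 or 4, 4 without Strain replicate 3 or TD replicate 2, 5 without TD replicate 1 and 4 with the letter term. Itgal, the integrin chain of lymphocytes and myeloid cells that binds ICAM1, had 13.3, 18.9, 21.2, 20.4 and 18.1 CPM in TD and 35.8, 84.7, 49.7 and 36.2 CPM under Strain (log2 fold change 1.49 ± 0.24, adjusted p = 0.00647). Fgr, a kinase of neutrophils and monocytes, rose (1.16 ± 0.25, adjusted p = 0.016). The Fgr call was lost without Strain replicate 2 (adjusted p = 0.053) and with the letter term (adjusted p = 0.0721).

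Integrin and laminin genes fell in 5 of 32 cases and rose in 2, and the count was 2 without Strain replicate 2, 4 without TD replicates 1, 3 or 4 and 1 with the letter term. Lamb2, a laminin chain of vessel, nerve and muscle basement membranes, fell from 225 ± 24.2 to 133 ± 20.4 CPM (mean ± SD of 5 and 4 libraries, adjusted p = 0.00437), and Lama2, the main laminin chain around muscle fibres, fell (-0.69 ± 0.16, adjusted p = 0.0184). The Lama2 call was lost without Strain replicate 2 (adjusted p = 0.0582) and with the letter term (adjusted p = 0.0611). Of 18 pericyte and smooth muscle genes 1 rose and 3 fell, 14 had a log2 fold change below 0 and the median was -0.16; the number called was 1 with the letter term. The 1 that rose was Rgs5, a pericyte marker (log2 fold change 0.60 ± 0.14, adjusted p = 0.0181), a call lost with the letter term (adjusted p = 0.0707). Cspg4, the pericyte proteoglycan NG2, was among the falls (log2 fold change -0.58 ± 0.08, adjusted p = 0.00463).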
